A study of Homo sapiens with 4 samples.

Results

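The region around FOXA1, TTC6 and MIPOL1 on chromosome 14 was examined in POLR2A HiChIP-seq data from HepG2, a human hepatocellular carcinoma cell line. It ran from the lowest start to the highest end of the 3 genes in GENCODE, with 50 kb added on either side, which gave chr14:37147894-38091442 of GRCh38, or 943.549 kb. A DNA loop was a member when at least 1 of its anchors lay in this interval. The mock list held 266 such loops of 66417, the PDS list held 113 of 18778, and both lists together held 309 of 77862. The region was chosen by measured values, since it holds one of the strongest mainly single-copy loops of the mock list. Its PET counts and its PDS/mock ratios are therefore given as a description, with no test.

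HepG2 cells were given sterilized water (Mock) or 20 µM PDS for 24 h, with 2 biological replicates per condition, and no other agent or genotype differed between the groups. PDS (pyridostatin) is a small molecule that binds guanine quadruplex (G4) structures. After formaldehyde fixation and MboI digestion, fragments that lay close together were ligated and enriched with an antibody against POLR2A, the largest subunit of RNAPII, so that a paired-end tag (PET) records the contact of 2 fragments in chromatin enriched for RNAPII. The authors deposited 1 list of loops per condition, with its replicates combined and the PET count of each loop.

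FOXA1 encodes a forkhead transcription factor that can open closed chromatin and, with FOXA2 and HNF4A, maintains the hepatocyte program. TTC6 encodes a protein with tetratricopeptide repeats, and MIPOL1 (mirror-image polydactyly 1) encodes a coiled-coil protein. RNAPII-linked loops bring promoters and distal elements, or transcribed stretches of gene bodies, close to each other, and G4 structures form in single-stranded DNA with several runs of guanines, which are frequent in promoters.

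MIPOL1 (ENSG00000151338.21) lies on the plus strand at chr14:37197894-37579125, with 30 annotated transcripts. FOXA1 (ENSG00000129514.8) is a short gene of 6.508 kb on the minus strand at chr14:37589552-37596059. TTC6 (ENSG00000139865.17) starts within FOXA1 on the opposite strand and covers chr14:37595629-38041442. The canonical starts of FOXA1 and TTC6 thus shared 1 anchor, chr14:37593310-37597676, and no loop at this anchor can be given to either gene alone.

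The 300 bases around each start in RefSeq (GRCh38.p14, 250 before to 50 after the start) are shown because PDS acts on G4 structures and the promoters differ in predicted G4 motifs. All 3 genes had an entry. Capitals mark predicted motifs, in which 4 runs of 3 or more G are separated by 1 to 7 other bases, or the same runs of C where the motif lies on the other strand. FOXA1 is at chr14:37595200-37595499 on the minus strand, TTC6 at chr14:37595379-37595678 on the plus strand and MIPOL1 at chr14:37197687-37197986 on the plus strand.
FOXA1: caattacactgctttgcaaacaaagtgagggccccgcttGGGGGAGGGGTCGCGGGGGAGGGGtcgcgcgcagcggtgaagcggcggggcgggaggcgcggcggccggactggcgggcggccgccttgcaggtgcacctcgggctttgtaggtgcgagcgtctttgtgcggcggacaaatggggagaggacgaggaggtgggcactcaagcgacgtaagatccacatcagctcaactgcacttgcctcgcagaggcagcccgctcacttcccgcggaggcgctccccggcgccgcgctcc
TTC6: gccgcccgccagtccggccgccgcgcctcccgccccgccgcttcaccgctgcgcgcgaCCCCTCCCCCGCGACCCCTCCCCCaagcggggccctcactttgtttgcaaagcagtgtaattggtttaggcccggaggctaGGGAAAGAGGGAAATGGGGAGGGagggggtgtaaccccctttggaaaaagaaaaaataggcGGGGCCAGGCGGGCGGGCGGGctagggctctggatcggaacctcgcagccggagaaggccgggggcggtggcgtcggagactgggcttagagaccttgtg
MIPOL1: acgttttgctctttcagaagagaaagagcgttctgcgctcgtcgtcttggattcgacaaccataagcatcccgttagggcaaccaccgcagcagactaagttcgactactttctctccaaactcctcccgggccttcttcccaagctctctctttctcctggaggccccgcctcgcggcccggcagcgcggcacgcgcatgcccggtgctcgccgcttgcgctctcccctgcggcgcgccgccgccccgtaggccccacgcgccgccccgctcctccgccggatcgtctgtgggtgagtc
The FOXA1 promoter held 1 motif, the TTC6 promoter 3, of which 1 is the FOXA1 motif read from the other strand, and the MIPOL1 promoter 0. Over 35116 RefSeq promoters of this length, 25.0% held a motif. The forkhead motif TGTTTAC was searched on both strands and was in none of these 3 windows, against 3.42% of all promoters. Only this exact sequence was searched. Near matches such as TGTTTGC, which lies in the stretch shared by the FOXA1 and TTC6 windows, were not counted. These are matches of letters, and no structure or factor binding was measured here.

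Fewer loops and PETs were listed after PDS treatment in all places compared, and the region stood within that pattern. PETs of the region summed to 1224 in the mock list and to 428 in the PDS list. The ratio of PDS to mock was 0.350, with a 95% interval of 0.313 to 0.390 that covers counting error only. For loop numbers the ratio was 0.425 (0.341 to 0.529). On the rest of chromosome 14 the ratio of loop numbers was 0.365 (0.344 to 0.387), from 4233 and 1545 loops, and that of PETs was 0.332 (0.322 to 0.342). Between 20 and 40 Mb of that chromosome but outside the region, the ratios were 0.407 for loops and 0.360 for PETs, so the intervals of the region overlapped those of its neighbourhood. On the other chromosomes the corresponding ratios were 0.276 (0.272 to 0.281) and 0.258 (0.255 to 0.260), below the intervals of the region.

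These ratios depend on the minimum of 3 PETs in both lists, because a loop that is not listed may still have had PETs. A ratio that allows for this minimum was estimated from loops in both lists with 7 to 19 summed PETs. It assumes 1 common ratio for all loops of a set and leaves out loops missing from either list. It was 0.520 (0.410 to 0.650) over 59 loops of the region, 0.551 (0.512 to 0.593) on the rest of chromosome 14 and 0.484 (0.469 to 0.499) on the other chromosomes. The limit of 19 leaves out the strongest loop of the region, with 31 and 9 PETs. Without this upper limit the ratios were 0.490 (0.390 to 0.608), 0.546 (0.510 to 0.583) and 0.543 (0.529 to 0.557). The region then lay below the other chromosomes instead of above them. With either setting the region could not be separated from the rest of chromosome 14 or from the other chromosomes. The depths of the libraries are unknown, so fewer sequenced PETs and fewer contacts per cell cannot be told apart.

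**Figure D1:**
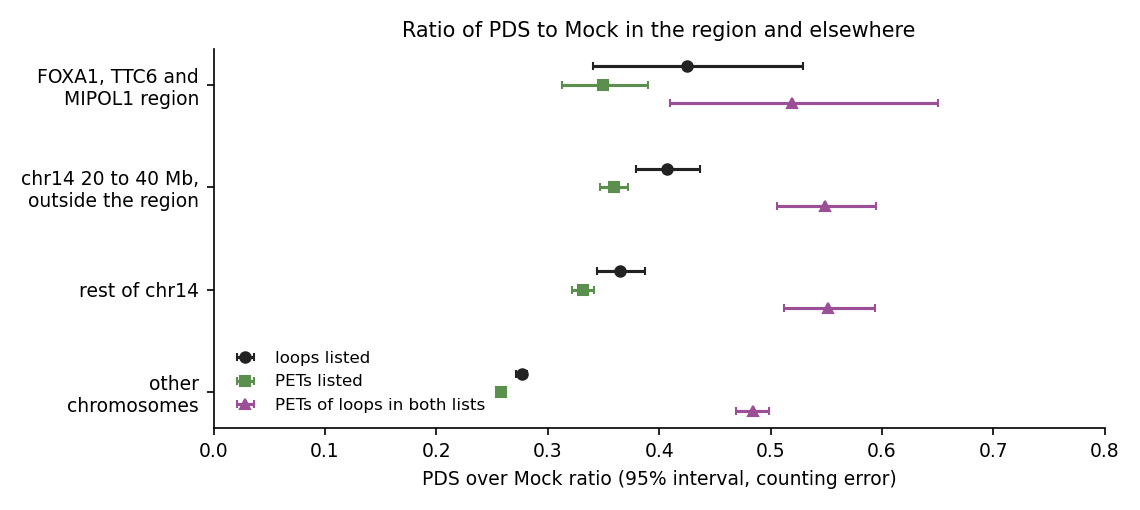
PDS over Mock ratios (x axis) of the numbers of loops, of the PETs in all listed loops and of the PETs of loops in both lists, for the region and for 3 other sets of loops (y axis). Points are ratios and bars are 95% intervals for counting error; the region's loop ratio of 0.425 lies near the 0.407 of its neighbourhood and above the 0.276 of other chromosomes.

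Of the 266 mock loops, 70 were also in the PDS list. This was 26.3% of the mock loops of the region (21.4 to 31.9%), beside 11.0% over all mock loops of the series, and 61.9% of its PDS loops (52.7 to 70.4%), beside 39.1% over all PDS loops. Between 20 and 40 Mb outside the region the shares were 21.6% (20.1 to 23.2%) and 53.1% (50.2 to 56.0%), and these intervals overlapped those of the region. The share also depended on the PETs of the mock loop. In the region, 13.8% of loops with 3 mock PETs, 23.2% of those with 4, 34.4% of those with 5 to 6, 57.1% of those with 7 to 9 and 66.7% of the 12 loops with 10 or more were listed after PDS treatment. On the rest of chromosome 14 the corresponding shares ran from 7.78% to 72.8%. The lowest count, 3 PETs, was that of 43.6% of the mock loops of the region and of 54.1% on the rest of the chromosome.

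Among the 70 loops in both lists, 44 had fewer PETs after PDS treatment, 17 had the same number and 9 had more. The share with fewer PETs was 62.9%, beside 55.3% over the series, and the median log2 ratio was -0.42 in the region and on the rest of chromosome 14. The 196 loops in the mock list alone had 803 PETs and at most 13 each. The 43 loops in the PDS list alone had 142 PETs and at most 5 each. The mock list had 94 loops with at least 5 PETs and the PDS list 22, a ratio of 0.234 (0.148 to 0.371). On the rest of chromosome 14 this ratio was 0.264 (0.231 to 0.302), and on the other chromosomes it was 0.138 (0.131 to 0.145). Loops with at least 10 PETs numbered 12 and 0 in the region, and 612 and 50 over the series.

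**Figure D2:**
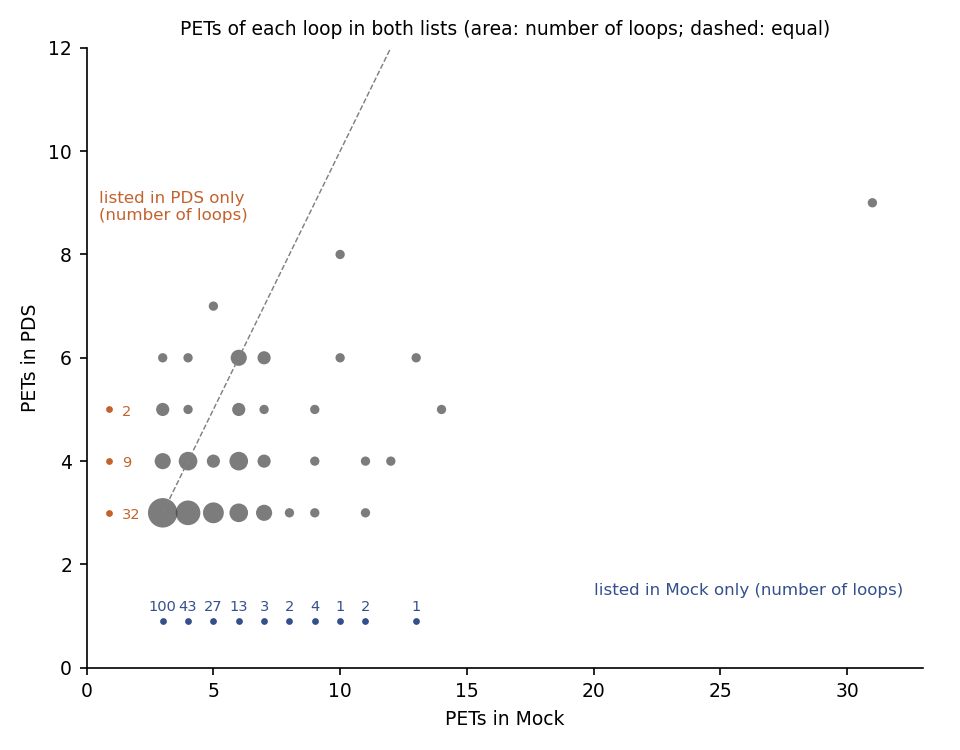
PETs of each loop of the region in Mock (x axis) and PDS (y axis); the area of a grey point is the number of loops with that pair of counts and the dashed line marks equal counts. Small coloured points give the numbers of loops in 1 list alone, and the point at 31 and 9 PETs is the strongest loop, far to the right of the next at 14 and 5.

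The strongest loop joined chr14:37702683-37722450 and chr14:37863515-37880870, both inside TTC6 and 159.6 kb apart. Its PETs numbered 31 in the mock list and 9 in the PDS list, a ratio of 0.290 (0.140 to 0.600). The next strongest loop of the region had 14 mock PETs. No other loop of chromosome 14 had more in the mock list, 10 loops of the series did, and the mock counts next above and next below it were 32 and 24. Among the 8507 mock loops of at least 100 kb it ranked 3. Exon numbers are those of the canonical transcripts. The left anchor holds exon 8 of TTC6 and a snoRNA gene (ENSG00000200385). The right anchor lies past the 3′ end of the canonical TTC6 transcript, chr14:37595629-37842717, within a longer TTC6 transcript that has an exon there at chr14:37874460-37874563. In these anchors 3.95% and 3.36% of the 31-base sequences occur more than once in the reference. For the 12 loops of the region with at least 10 mock PETs this share ran from 2.55% to 19.9%.

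Predicted G4 motifs of these anchors are shown because PDS binds G4 structures. The left anchor held 1, at chr14:37718822-37718846 (plus strand). The right anchor held 3, of which those at chr14:37868687-37868707 (plus strand) and chr14:37870410-37870430 (minus strand) are shown. They are given 5′ to 3′ on the strand of the motif, from the reference genome GRCh38, with runs of G in capitals.
Left anchor, 37718822: GGGctttctGGGaGGGtgaggtGGG
Right anchor, 37868687: GGGaggaGGGctGGGaatGGG
Right anchor, 37870410: GGGtgcaGGGGcGGGacaGGG
Whether any of them folds in these cells was not measured.

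The anchors with most PETs were wide ones in the gene bodies of TTC6 and MIPOL1. Inside the region 94 anchors were used, 93 of them in mock-treated and 71 in PDS-treated cells. The median anchor had 4 mock partners, and the highest number was 27. Of these anchors 86 had fewer PETs after PDS treatment, 2 had as many and 6 had more. The number with at least 10 partners was 11 in the mock list and 5 in the PDS list. All 111 mock anchors, those outside the region included, formed 1 connected set. The 79 PDS anchors formed 4 sets, the largest of 70. Corresponding counts over all anchors of the series are not given here. Over the series the PDS/mock ratio was 0.263 for PETs and 0.283 for loop numbers. These anchor counts therefore cannot be read as particular to the region.

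**Figure D3:**
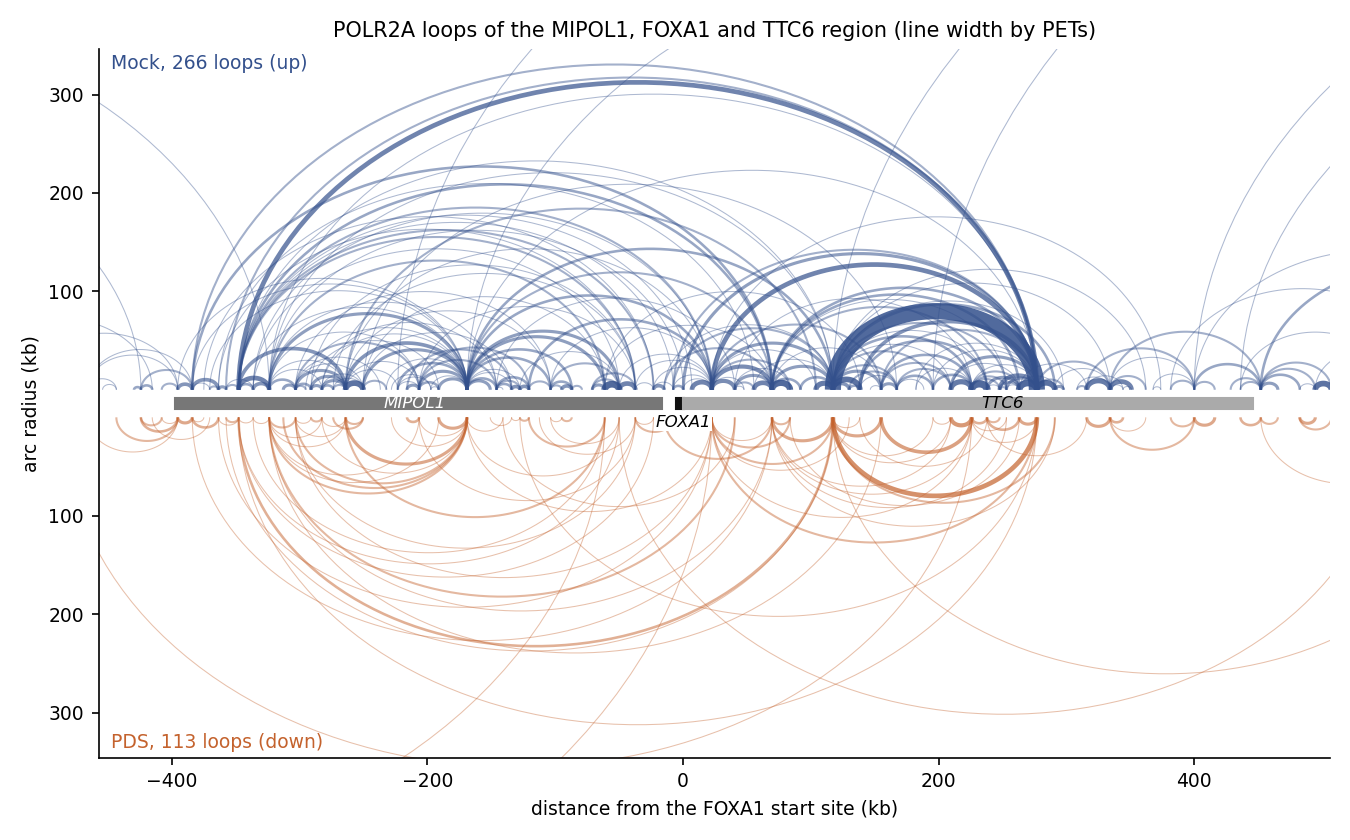
Loops of the region drawn as arcs between anchor centres, with distance from the FOXA1 start on the x axis and the the radius of the arc on the y axis (266 Mock loops upward, 113 PDS loops downward, line width by PETs). Arcs that leave the frame are loops to anchors outside it; the thick arc over TTC6 is the loop of 31 PETs, and the high arcs over FOXA1, up to the loop of 624.7 kb and beyond, join MIPOL1 to TTC6.

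The right anchor of the strongest loop, chr14:37863515-37880870, had the most mock PETs. It had 22 loops and 150 PETs in mock-treated cells, and 6 loops and 28 PETs after PDS treatment. Its ratio of 0.187 (0.125 to 0.279) lay below the interval of the whole region, which includes this anchor. The anchor was picked by its mock count, which is the denominator of the ratio and also helped to choose the region. A low ratio was therefore favoured in advance, and the value is a description. Without its strongest loop the counts were 119 and 19, and the ratio was 0.160 (0.0988 to 0.258), for an anchor still picked by its mock count. Its mock partners lay in TTC6 (15 loops), in MIPOL1 (5) and at FOXA1 (2), and 12 of its loops were over 100 kb long.

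The left anchor, chr14:37702683-37722450, had 25 loops and 143 PETs in the mock list, and 11 loops and 49 PETs in the PDS list. Its ratio of 0.343 (0.248 to 0.473) was close to that of the region. The intervals of the left and right anchors overlapped from 0.248 to 0.279, which does not decide whether they differ, and a difference between them was not tested.

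In MIPOL1 the main anchor was chr14:37411003-37441286, which holds exon 11 of MIPOL1 and the start of RNU6-886P. It had 27 loops and 119 PETs in the mock list, and 11 loops and 42 PETs in the PDS list. Near the 5′ end of TTC6, chr14:37605518-37629962 covers exons 2 and 3 and an alternative TTC6 start. It had 21 loops and 95 PETs in the mock list, and 11 loops and 38 PETs in the PDS list. Their ratios, 0.353 (0.249 to 0.501) and 0.400 (0.275 to 0.581), were near that of the region.

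These 4 anchors took part in 33.5% of the mock loops and 36.6% of the mock PETs of the region. After PDS treatment they took part in 35 of the 113 loops and 137 of the 428 PETs. Wide anchors collect more PETs, and across the 94 anchors Spearman's rho between width and mock PETs was 0.77 (a description, since anchors share loops). Per 10 kb of anchor, the right anchor of the strongest loop had 86.4 mock PETs, the left 72.3, the MIPOL1 exon 11 anchor 39.3 and that at TTC6 exons 2 and 3 38.9. By this density the latter 2 did not stand out, since the narrower anchor chr14:37542188-37548338 at MIPOL1 exon 13 had 73.2 and chr14:37325833-37336504 in MIPOL1 had 61.8.

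Of the 45 anchors with at least 20 mock PETs, 2 were in no PDS loop. They were chr14:37446528-37452036, a part of MIPOL1 without a canonical exon, with 35 mock PETs, and chr14:37758460-37766536, a part of TTC6 without a canonical exon, with 32. The median ratio of the other 43 such anchors was 0.353. The highest belonged to the MIPOL1 promoter.

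**Figure D4:**
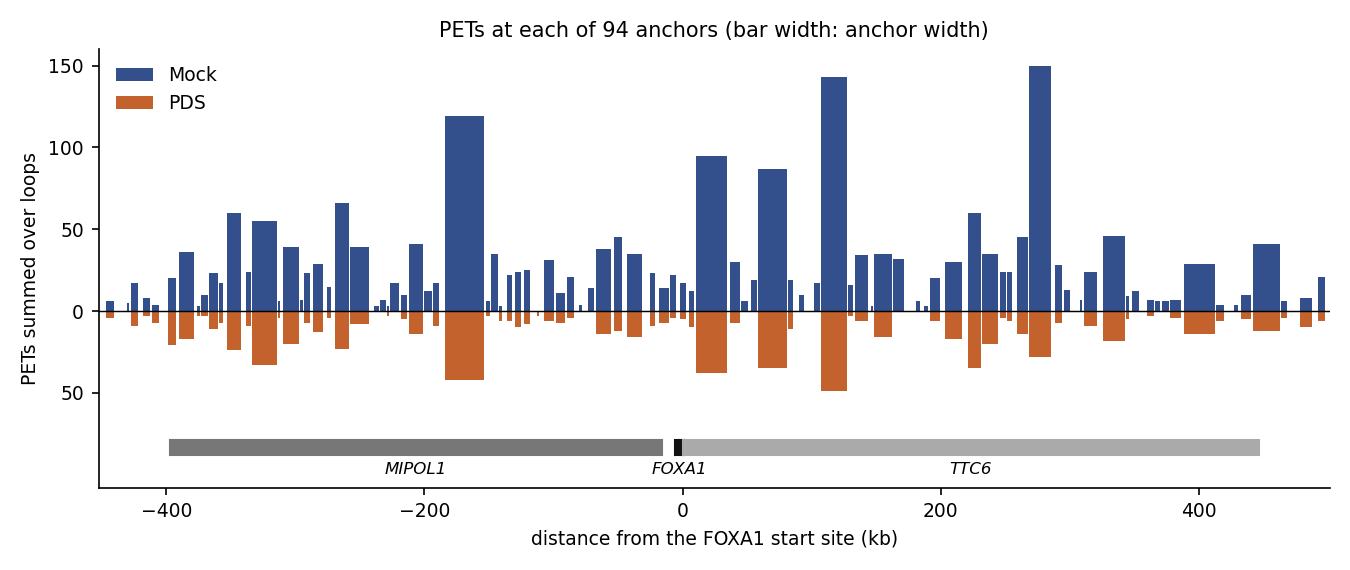
PETs summed over the loops of each of the 94 anchors inside the region, with distance from the FOXA1 start on the x axis and PETs on the y axis (Mock upward, PDS downward, bar width equal to anchor width, gene extents below). The highest Mock bar, 150 PETs, has a PDS bar of 28, and the neighbouring high bar in TTC6 has 143 and 49.

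The members had 2 canonical promoter anchors between them. At the anchor with the FOXA1 and canonical TTC6 starts, the mock list had 4 loops with 17 PETs. They led to the 3′ end of FOXA1 at chr14:37585189-37590025 (5 PETs), to exons 2 and 3 of TTC6 (3 PETs), to the right anchor of the strongest loop (6 PETs, 276.7 kb away) and to chr14:37262001-37280721 in MIPOL1 (3 PETs, 324.1 kb away). None of these 4 was in the PDS list, whose lowest count is 3 PETs. Most loops of such counts were missing from it, since 13.8% of the loops of the region with 3 mock PETs and 34.4% of those with 5 to 6 were in both lists. The PDS list had 1 loop of 5 PETs at this anchor, to chr14:37600222-37604312 in TTC6, 6.77 kb away. The summed ratio was 0.294 (0.113 to 0.768), too imprecise to be set apart from the region. This anchor held 6 predicted G4 motifs, and 0% of its 31-base sequences were repeated elsewhere.

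The anchor at the 3′ end of FOXA1, which also holds the start of the lncRNA gene ENSG00000289903, had 6 mock loops with 22 PETs. In the PDS list it had 1 loop with 4 PETs. No loop of this anchor was in both lists.

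At the MIPOL1 canonical promoter, chr14:37196906-37202657, the counts did not differ beyond counting error. It had 5 loops with 20 PETs in the mock list and 5 with 21 in the PDS list, a ratio of 1.05 (0.574 to 1.92), and 3 of the loops were shared. Its interval did not overlap that of the region for PETs, but PETs are listed in loops of at least 3 and are not independent counts. With 5 loops in each list, whether this promoter differs from the region is not settled. Its strongest loop, to chr14:37205342-37216926 in MIPOL1, had 7 and 6 PETs. A loop to chr14:37168226-37173690, with the starts of SLC25A21 (a mitochondrial carrier) and SLC25A21-AS1, was listed after PDS treatment alone, with 5 PETs. No predicted G4 motif lay in the MIPOL1 promoter anchor.

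When all annotated transcript starts were used, with 1 kb on either side, the mock list gave MIPOL1 78 loops (334 PETs) and the PDS list 41 (146 PETs), of which 23 were shared. The corresponding numbers for TTC6 were 38 loops (174 PETs) and 20 loops (73 PETs), of which 12 were shared. Most of these starts lie inside the gene bodies at the wide anchors described above, so these loops cannot be told from contacts of the gene body. The anchor chr14:37262001-37280721, with an alternative start of MIPOL1, had 13 loops and 55 PETs in the mock list, and 10 loops and 33 PETs in the PDS list. The anchor chr14:37395059-37400702, with 6 transcript starts, had 4 loops and 12 PETs in the mock list and none in the PDS list.

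Loops with a protein-coding start in an anchor made up 43.6% of the mock loops of the region (37.8 to 49.6%), beside 46.0% over the series, and 52.2% of its PDS loops (43.1 to 61.2%). On the rest of chromosome 14 the share was 38.4% and 29.5%. The ratio of loop numbers with such a start was 0.509 (0.372 to 0.695) in the region and 0.281 (0.253 to 0.311) on the rest of the chromosome, and these intervals did not overlap. For loops without such a start it was 0.360 (0.264 to 0.491) and 0.418 (0.389 to 0.448). From loops in both lists, the ratio for promoter loops was 0.437 (0.294 to 0.622) in the region and 0.457 (0.399 to 0.521) on the rest of chromosome 14. This ratio leaves out loops missing from a list, so it does not bear on the difference in loop numbers. In the region, 112 of the 116 mock loops with such a start were at starts of the members. With canonical starts alone the members had 9 mock loops. Most of these starts lie inside gene bodies, so contacts of promoters and of gene bodies cannot be told apart here.

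Most loops stayed within the body of 1 gene, in a region of 943.549 kb mostly taken up by MIPOL1 (381.2 kb) and TTC6 (445.8 kb). TTC6 is counted here to its annotated end, past that of its canonical transcript. The share over other loops of the series is not given here, so these counts cannot be read as particular to the region. Both anchors lay in MIPOL1 for 100 mock loops (454 PETs) and 45 PDS loops (160 PETs). Both lay in TTC6 for 99 mock loops (517 PETs) and 38 PDS loops (162 PETs). A further 29 mock loops (109 PETs) and 13 PDS loops (43 PETs) joined MIPOL1 to TTC6 across FOXA1, with a mock median length of 354.8 kb, and 5 of them were shared. The strongest of these joined exons 2 and 3 of MIPOL1 at chr14:37242057-37252830 to the right anchor of the strongest TTC6 loop over 624.7 kb, with 9 mock and 3 PDS PETs. From the same MIPOL1 anchor a loop of 465.1 kb to the left anchor had 3 mock and 5 PDS PETs. The ratios of loop numbers for the MIPOL1, TTC6 and MIPOL1 to TTC6 classes were 0.450, 0.384 and 0.448, with overlapping intervals.

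Loops of the region were longer than those on the rest of chromosome 14 and on the other chromosomes. The median distance between anchor centres was 50.5 kb (37.2 to 63.1) for its mock loops, 21.6 kb (20.6 to 22.5) on the rest of chromosome 14 and 17.1 kb (16.9 to 17.3) on the other chromosomes. Single windows had similar lengths, with a mock median of 59.7 kb in that of STXBP6 on the same chromosome. For PDS loops the median was 53.7 kb (28.8 to 84.5) in the region and 20.6 kb on the rest of the chromosome. Loops over 200 kb numbered 49 in the mock list (18.4%, 14.2 to 23.5%) and 23 in the PDS list (20.4%), beside 5.68% of all mock loops of the series. Short loops of 5 to 20 kb made up 27.8% of the mock loops, and 47.7% on the rest of chromosome 14.

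Length also differed between the classes of loops. The 70 loops in both lists had a median length of 26.2 kb (18.3 to 51.0), the 196 in the mock list alone 57.4 kb (42.4 to 81.8) and the 43 in the PDS list alone 143.7 kb (75.1 to 265.9). On the rest of chromosome 14 the order was the same, with medians of 15.1, 23.8 and 32.9 kb. The ratio of loop numbers in the region was 0.473 for loops of 5 to 20 kb, 0.339 for 20 to 50 kb, 0.417 for 50 to 200 kb and 0.469 above 200 kb, with overlapping intervals, so no trend with length was detectable.

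**Figure D5:**
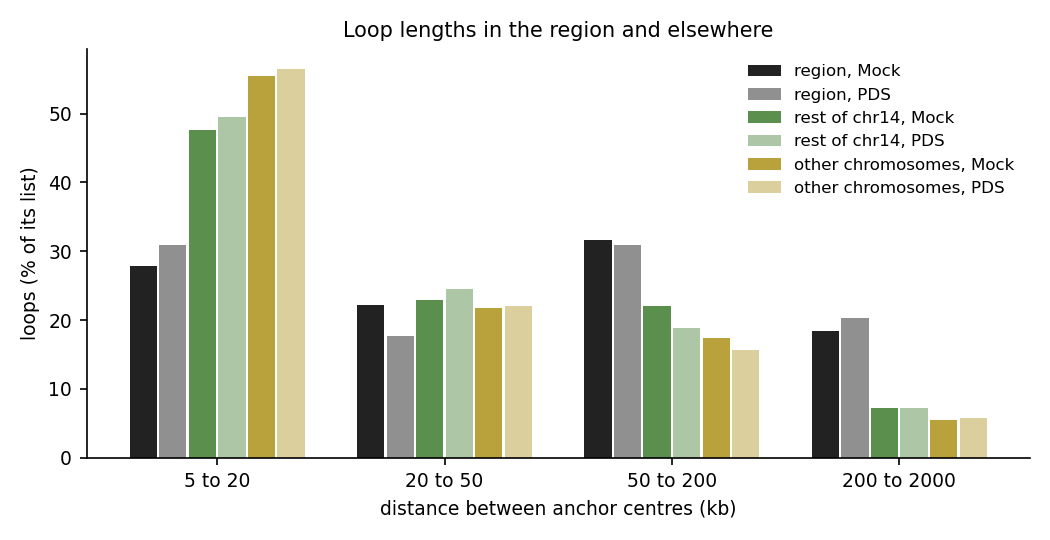
Share of loops (y axis, percent of the list) by distance between anchor centres (x axis, kb) for the region, the rest of chromosome 14 and the other chromosomes, in Mock (full colour) and PDS (pale). The region has 27.8% of its Mock loops at 5 to 20 kb and 18.4% above 200 kb, against 47.7% and 7.28% on the rest of chromosome 14.

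Predicted G4 motifs were in at least 1 anchor of 76.7% of the mock loops of the region (71.3 to 81.4%), beside 75.2% over the series. The share was 71.7% for PDS loops. Motif density was low, however, with 8.34 motifs per 100 kb of anchor, against 10.3 between 20 and 40 Mb outside the region, 16.0 on the rest of chromosome 14 and 22.3 in anchors of the other chromosomes. The median GC content of the anchors was 37.9%, against 39.2% between 20 and 40 Mb and 42.9% over the series. Of the 94 anchors inside the region 38 held a motif, with 61 motifs in all. The number of loops with a motif was 204 in the mock list and 81 in the PDS list, a ratio of 0.397 (0.307 to 0.513). Without a motif the numbers were 62 and 32, a ratio of 0.516 (0.338 to 0.788). These intervals overlapped, and on the rest of chromosome 14 the ratios were 0.366 and 0.362. Among the main anchors, that at MIPOL1 exon 11 had 0 motifs and a ratio of 0.353. The left anchor of the strongest loop had 1 motif and 0.343, and the anchor at TTC6 exons 2 and 3 had 2 and 0.400. The right anchor of the strongest loop had 3 motifs and 0.187. These anchors differ in width, and a relation of ratio to motif number was not tested.

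The forkhead motif TGTTTAC occurred 19.9 times per 100 kb in the anchors of the region, counting both strands, 17.3 times between 20 and 40 Mb outside it, 16.1 times on the rest of chromosome 14 and 14.9 times in all anchors of the series. GC content, given above, followed the reverse order, and its part in this difference was not tested.

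Of the 12 loops with at least 10 mock PETs, 4 were not in the PDS list. They joined chr14:37528046-37539954 to chr14:37542188-37548338 in MIPOL1 (13 PETs), chr14:37863515-37880870 to chr14:37883298-37889305 in TTC6 (11 PETs), chr14:37696661-37701944 to the left anchor of the strongest loop (10 PETs), and chr14:38087323-38092939, with the start of the lncRNA gene ENSG00000259048, to chr14:38093453-38112003 beyond the region (11 PETs). Their lengths ran from 11.3 to 14.1 kb. In contrast, the loop of 16.3 kb from chr14:37798266-37811515 to chr14:37816113-37826248, a TTC6 anchor with exons 28 to 30, had 10 mock and 8 PDS PETs. The latter anchor had 60 mock and 35 PDS PETs in all, a ratio of 0.583 (0.386 to 0.882).

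Few starts of other genes lay in the anchors. Among protein-coding genes these were SLC25A21 inside the region, with 4 mock loops and 17 PETs against 2 PDS loops and 9 PETs, and 2 genes at anchors outside it that a loop joined to the region, PAX9 (a paired-box transcription factor) and SFTA3. The PAX9 anchor was joined to the SLC25A21 start over 511.3 kb in the mock list alone, with 3 PETs. The SFTA3 anchor was joined to exons 2 and 3 of TTC6 over 1137 kb in the PDS list alone, with 3 PETs. Other genes with a start in an anchor of at least 10 mock PETs inside the region were ENSG00000200385, ENSG00000258696, ENSG00000259048, ENSG00000259087, ENSG00000289687, ENSG00000289903, RNU6-886P, RNU6-1277P and SLC25A21-AS1. Outside it were ENSG00000258649, ENSG00000258661, ENSG00000258680, ENSG00000258827, ENSG00000259072 and LINC00639.

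Among 14 hepatocyte transcription factor genes, 12 had a mock loop and 6 a PDS loop at a promoter. Over all protein-coding genes the shares were 59.8% and 28.7%. Loops of the 14 factor genes numbered 71 in the mock list and 22 in the PDS list, with fewer for 11 genes and more for 0. The whole series went from 66417 to 18778 loops, so this drop is not particular to these genes. FOXA2, the closest relative of FOXA1 in the liver, had 7 loops (35 PETs) in the mock list and 3 (9 PETs) in the PDS list. HNF4A, a nuclear receptor of hepatocytes, had 13 loops with 52 PETs and 6 with 19. CEBPB, a leucine zipper factor, had 26 loops with 112 PETs and 7 with 23. FOXA3 and CEBPA had none in either list. Of 12 hepatocyte markers such as ALB 11 had a mock loop, as did 5 of 10 erythroid and leukocyte markers, of which HBA1 and HBA2 share their loops. Over all 20038 protein-coding genes the share with a mock loop at a start was 59.8%, so the presence of a loop says little about the labelled cell type.

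Windows of 12874 protein-coding genes were compared (gene plus 50 kb on either side, outside the region, with a loop in each list). No window had more mock PETs than the region, which spans 3 genes and is wider than most windows. The region had 130 mock PETs per 100 kb, against a median of 22.5 over these windows. Its density was exceeded by windows on the same chromosome such as those of STRN3 (199.9), ENSG00000258790 (189.9) and STXBP6 (147.6). The windows most like the region in mock PETs and PET ratio, by Euclidean distance on both log2 values, were those of EGLN3 (a prolyl hydroxylase), with 652 and 231 PETs, ENSG00000258790, with 560 and 202, and STXBP6 (a syntaxin-binding protein), with 503 and 215. All 3 lie on chromosome 14. Their ratios were 0.354, 0.361 and 0.427.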

How the data were processed

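POLR2A HiChIP-seq loops were analysed for HepG2 cells, with 1 combined list for each of 2 conditions (4 libraries). The deposited values are whole-number counts of PETs per loop with no scaling. The authors processed paired reads of 100 bp with HiC-Pro 3.1.0 on GRCh38. The loop caller and the way replicates were combined are not given in the sources used here. The lowest count is 3 PETs, and library depth is unknown. The members and gene lists were chosen with earlier results of these data known. Named genes were the members, genes with a start in an anchor, hepatocyte factors and the 3 windows nearest in PETs and ratio.

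Loops were matched when both anchors overlapped by at least 1 bp; the anchors of all 7333 matched loops were identical. Genes came from GENCODE 44. Ratios have intervals from Wilson limits of the PDS fraction, medians from binomial ranks, and the ratio from loops in both lists a likelihood interval. These cover counting error only, and with 1 list per condition no test was made. PET intervals treat each PET as an independent count, although PETs are listed in loops of at least 3, so they can be too narrow. Matching, the ratio estimate and the motif search were tested on simulated data, the ratio estimate with 1 common ratio for all loops. Python 3.11.15, numpy 2.4.6, scipy 1.17.1, pandas 2.3.3, pysam 0.24.0, numba 0.67.0 and samtools 1.23.1 were used. Alternatives were other PET minimums, regions, overlaps, starts and spacers. The sequence of 1 motif is not reported here.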

Additional observations from a re-analysis of the deposited data

How the results depend on the processing

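The PDS/mock ratios of the region kept their direction under every alternative run. With a minimum of 5 PETs in both lists, the ratio of loop numbers was 0.234 (main value 0.425), that of PETs was 0.196 (0.350), and 15 loops were in both lists in place of 70. Extending the anchors by 5 kb raised the mock loops with a PDS counterpart to 187, since neighbouring anchors then match. Using the canonical start alone left 9 mock and 6 PDS loops at member promoters, against 112 and 58 with all starts. Spacers of up to 12 bases raised the share of mock loops with a G4 motif from 76.7% to 82.0% (76.9 to 86.1%). Over the series the share rose from 75.2% to 87.7%, so the region then lay below the series. With both anchors inside, without flanks, without the strongest loop and with a reciprocal overlap of 50%, values moved by less than their counting error. No paired analysis was possible because the lists hold no values per replicate, and leaving out a replicate was not run for the same reason. Since depth is unknown and 43.6% of the mock loops have 3 PETs, single loops and anchors with few PETs are known with little precision.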
